A study of Homo sapiens with 14 samples.

Results

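The miR-192, miR-194 and miR-215 family was followed through 2 assays for N7-methylguanosine (m7G), a guanine that carries a methyl group, in the small RNA of A549 cells. Its 5 members, listed in the tables as hsa-miR-192-5p, hsa-miR-192-3p, hsa-miR-194-5p, hsa-miR-194-3p and hsa-miR-215-5p and written here without the prefix, were taken by name from the 2588 mature miRNAs of each count table, whatever their values. A549 is a human lung adenocarcinoma line, and all groups came from this line without any genetic change. In BoRed-seq, decapped total RNA was treated with NaBH4 (borohydride) in the presence of free m7GTP, which reduces m7G. Acid then removed the reduced base and left a site without one. Such sites take up a biotin probe, by which the RNA is captured on streptavidin beads (Red, n = 2). Its controls (Ctrl, n = 2) received NaBH4 that had been quenched with acid. The protocol takes control RNA through the acid and probe steps too, and gives no separate path for it at the beads. Ctrl is therefore read here as a mock pulldown and not as unselected RNA. In m7G-RIP-seq, heat-denatured, decapped RNA was immunoprecipitated with an antibody against m7G (IP, n = 5) and compared with RNA saved before the pulldown (Input, n = 5). No source says that the replicates of these assays were separate cultures, so p-values measure the spread between these libraries, which may be technical.

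A miRNA hairpin yields a 5p and a 3p strand, and the strand that enters the silencing complex guides it to target RNAs mainly through its seed, bases 2 to 8. The miR-192 and miR-194 genes lie in pairs on 2 chromosomes, and the family is known from liver, kidney and gut epithelium, where hepatocyte nuclear factors drive it. It is also known as a target of the tumour suppressor p53, which is wild type in A549 cells.

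The mature sequences of the 5 members, with the seed in capitals, show which of them can share targets and which could share reads. Sequences and positions are those of RefSeq on GRCh38.p14, and all 5 members were matched by name. They are written 5′ to 3′.
miR-192-5p: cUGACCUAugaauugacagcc
miR-215-5p: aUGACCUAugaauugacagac
miR-192-3p: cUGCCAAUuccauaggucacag
miR-194-5p: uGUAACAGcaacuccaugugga
miR-194-3p: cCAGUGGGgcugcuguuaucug
The seed UGACCUA was found in 2 mature miRNAs of the reference, miR-192-5p and miR-215-5p, while the seed of each other member belonged to 1 mature miRNA. Over their 21 bases, miR-192-5p and miR-215-5p differ by 2 substitutions, C1A and C20A, counted from the 5′ end with the base of miR-192-5p first. The alignment settings in the methods of the study allow at most 1 mismatch, which is fewer than these 2. Reads shortened at an end can still lose a distinguishing base. The processing notes of the labels name another aligner, so whether this limit holds for the deposited counts is not settled.

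On chromosome 11, miR-192-5p (chr11:64891203-64891223) and miR-192-3p (chr11:64891159-64891180) lie in the hairpin MIR192, on the minus strand. The hairpin MIR194-2 begins 108 bases beyond it and holds one copy of miR-194-5p (chr11:64891404-64891425) and the only copy of miR-194-3p (chr11:64891368-64891389). Both hairpins lie in an exon of the long noncoding RNA MIR194-2HG, on the same strand. On chromosome 1, miR-215-5p (chr1:220117916-220117936) in MIR215 and the other copy of miR-194-5p (chr1:220118206-220118227) in MIR194-1 lie in neighbouring hairpins in the same way. These are also on the minus strand, in an intron of IARS2, which is transcribed from the opposite strand.

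Reads of miR-194-5p therefore come from 2 hairpins that cannot be told apart, whereas miR-194-3p has its own sequence. The closest stretch of the MIR194-1 hairpin, its bases 51 to 72, differs from miR-194-3p at 5 of 22 positions. They are compared here with the differing bases in capitals.
miR-194-3p, from MIR194-2: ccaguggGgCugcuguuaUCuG
MIR194-1, bases 51 to 72: ccaguggAgAugcuguuaCUuU
The deposited counts of miR-194-5p were odd in 6 of 14 libraries, so they were not plain doubles of a count per locus.

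Total counts over all mature miRNAs were 242085 and 277498 in Red, 5874405 and 4678102 in Ctrl, 2854811 to 6452759 in IP and 7097379 to 14874685 in Input. The Red libraries were therefore the shallowest, and several members had few counts there. miR-21-5p, the most abundant miRNA of many tumour lines, took 79.0% to 80.4% of the counts in Ctrl, 26.7% and 26.9% in Red, 38.0% to 46.3% in Input and 4.64% to 6.27% in IP. In m7G-RIP-seq, replicates 4 and 5 stood apart from replicates 1 to 3 along the second principal component, which held 15.3% of the variance. The labels name no batch, and values within these sets are given beside the results. Among the defining miRNAs of other cell types, miR-122-5p of hepatocytes was at 0 in all 14 libraries, and miR-451a, miR-223-3p, miR-142-5p, miR-133a-3p, miR-206 and miR-124-3p did not pass the count filter in either assay. Of the tumour epithelial markers, miR-21-5p, miR-31-5p and miR-200c-3p passed the filter in both assays, while miR-141-3p reached at most 14 counts.

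The family was well expressed in A549 cells by its levels in Input, which was saved before any pulldown. Its members covered a wide range of levels. Levels in Ctrl are those after the mock pulldown. As counts scaled to a library total of 1e+06 (cpm), miR-192-5p was at 8211 and 6092 cpm in Ctrl and at 12459 to 15410 cpm in Input. It ranked 8th of 2588 mature miRNAs in Ctrl and 12th in Input. Divided by mature length, the level of miR-192-5p in Input was 654 ± 60.1 cpm per base, that of miR-194-5p 32.3 ± 21.3, that of miR-194-3p 11.1 ± 1.63, that of miR-215-5p 1.90 ± 0.365 and that of miR-192-3p 0.0732 ± 0.0311 (SD, n = 5 each). No neighbours in this order overlapped between Input libraries, the closest being miR-194-5p, with its lowest library at 15.6 cpm per base, and miR-194-3p, with its highest at 13.3.

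In Ctrl, per-base levels followed the same order, except that miR-194-3p and miR-215-5p could not be separated. miR-192-5p was at 341 ± 71.3 cpm per base and miR-194-5p at 15.2 ± 0.225 (SD, n = 2 each). miR-194-3p was at 1.06 and 1.11 cpm per base in the Ctrl libraries and miR-215-5p at 1.18 and 1.02, so the ranges overlapped. miR-192-3p was lowest, at 0.124 and 0.350 cpm per base. The other arm of the chromosome 1 hairpin, miR-215-3p, had 0 counts in all BoRed-seq and IP libraries and 3 counts over the 5 Input libraries. A count of 0 there allows up to 0.511 cpm in the deepest Ctrl library and up to 12.4 cpm in the shallowest Red library, for counting error only.

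**Figure D1:**
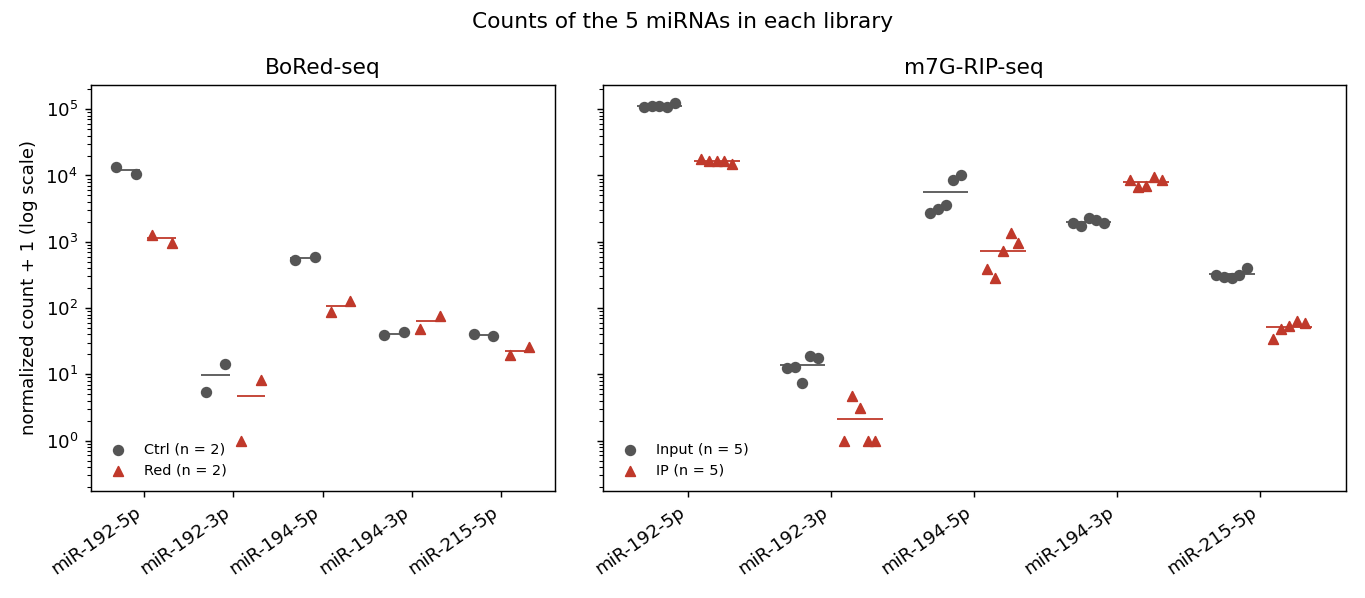
Normalized counts plus 1 (log scale) of the 5 miRNAs in each BoRed-seq library (left) and m7G-RIP-seq library (right), with grey circles for controls, red triangles for pulldowns and a line at each group mean. miR-192-5p, miR-194-5p and miR-215-5p lie lower in both pulldowns, while miR-194-3p lies higher, without overlap between the groups of either assay.

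Enrichment was measured as the log2 ratio of pulldown to control on median-of-ratios normalized counts, with a negative binomial Wald test in DESeq2 and Benjamini-Hochberg adjustment over all miRNAs tested. Calls were made at an adjusted p under 0.05. These ratios are relative to the typical miRNA of the assay, so they do not give absolute changes. In BoRed-seq, 2 of the 5 members were depleted and 0 enriched, against 27.2% of all 400 miRNAs with an adjusted p that were depleted and 32.2% that were enriched. In m7G-RIP-seq, 3 of the 4 members past the filter were depleted and 1 was enriched, against 29.9% depleted and 27.3% enriched among all 670 miRNAs tested.

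miR-192-5p, the dominant guide strand of the family, was depleted in both pulldowns. In BoRed-seq its normalized count was 13349 and 10598 in Ctrl and 1278 and 974 in Red. The lowest Ctrl library thus lay far above the highest Red library, and the Red values rested on 345 and 398 reads. The means of 11973 ± 1945 and 1126 ± 214.8 (SD, n = 2 each) gave a log2 enrichment of −3.41 ± 0.30 (SE), a level 10.7-fold lower in Red, with an adjusted p of 2.32e-29 (DESeq2). Its size moved with the scaling, to −2.32 ± 0.34 with size factors from total counts and −4.17 ± 0.33 with total counts without miR-21-5p, and it was called with both.

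In m7G-RIP-seq, miR-192-5p was again lower in the pulldown. Its normalized counts in Input 1 to 5 were 107365, 110542, 111544, 106538 and 122181, and in IP 1 to 5 they were 17745, 16295, 16742, 16243 and 14911. The groups were well separated, and both varied little. The means of 111634 ± 6258 in Input and 16387 ± 1022 in IP (SD, n = 5 each) gave a log2 enrichment of −2.77 ± 0.10 (SE), 6.81-fold lower in IP, with an adjusted p of 1.12e-156 (DESeq2). This value ranked 70th from the lowest of 670 miRNAs.

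miR-194-5p, the miR-194 strand usually described as its guide, was depleted as well. In BoRed-seq its normalized count was 538 and 588 in Ctrl against 85.2 and 125 in Red, from 23 and 51 reads. The groups did not overlap. The log2 enrichment was −2.40 ± 0.37 (SE, adjusted p of 3.18e-10, DESeq2), 5.28-fold lower in Red. With total-count factors it was −1.25 ± 0.44 (adjusted p of 0.00962, DESeq2), and without miR-21-5p in the totals it was −3.11 ± 0.44.

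In m7G-RIP-seq, the normalized counts of miR-194-5p in Input 1 to 5 were 2758, 3161, 3566, 8593 and 10041. In IP 1 to 5 they were 393, 281, 719, 1336 and 961. Replicates 4 and 5 lay above replicates 1 to 3 in Input and in IP alike, yet the highest IP library stayed below the lowest Input library. The log2 enrichment was −2.93 ± 0.49 (SE, adjusted p of 8.80e-09, DESeq2), 7.62-fold lower in IP. It was −2.82 ± 0.26 in replicates 1 to 3 alone and −3.05 ± 0.17 in replicates 4 and 5 alone, so the depletion was seen within each set.

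miR-192-5p and miR-194-3p did not part by replicate in Input. Normalized counts of miR-192-5p in Input ran from 107365 to 111544 in replicates 1 to 3 and from 106538 to 122181 in replicates 4 and 5. Those of miR-194-3p in Input ran from 1732 to 2295 and from 1886 to 2130. For both of these the sets overlapped in Input, whereas for miR-194-5p they did not, nor for miR-192-3p, at 12.1 or less against 16.5 or more. In IP the sets of miR-192-5p and miR-194-3p lay apart, though narrowly, with miR-194-3p at 6676 to 8491 in replicates 1 to 3 and at 8682 and 9459 in the others. What sets the replicates apart was not tested.

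miR-215-5p, which shares its seed with miR-192-5p, was depleted in m7G-RIP-seq, while BoRed-seq left it undecided. In Input 1 to 5 its normalized counts were 320, 293, 284, 313 and 404, and in IP 1 to 5 they were 33.0, 46.8, 52.7, 62.8 and 59.6. The groups did not overlap, and the log2 enrichment was −2.66 ± 0.24 (SE, adjusted p of 1.21e-27, DESeq2), 6.32-fold lower in IP. In BoRed-seq the normalized counts were 40.1 and 37.2 in Ctrl and 18.5 and 24.5 in Red, the latter from 5 and 10 reads. These libraries did not overlap either, but the log2 enrichment of −0.83 ± 0.71 (SE) had an adjusted p of 0.319 (DESeq2) and a 95% interval from −2.23 to 0.57. With size factors from total counts its sign turned, to 0.31 ± 0.79, and with total counts without miR-21-5p it was called, at −1.54 ± 0.70 (adjusted p of 0.0465, DESeq2).

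miR-194-3p, the passenger strand of MIR194-2, was enriched in the immunoprecipitate. Its normalized counts were 1900, 1732, 2295, 2130 and 1886 in Input 1 to 5 and 8491, 6676, 6866, 9459 and 8682 in IP 1 to 5. The lowest IP library thus lay well above the highest Input library. The means of 1989 ± 222 and 8035 ± 1211 (SD, n = 5 each) gave a log2 enrichment of 2.01 ± 0.16 (SE), 4.04-fold higher in IP, with an adjusted p of 6.72e-34 (DESeq2). It was 1.86 ± 0.15 in replicates 1 to 3 alone and 2.14 ± 0.14 in replicates 4 and 5 alone. It ranked 83rd from the highest of 670 miRNAs.

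In BoRed-seq, miR-194-3p could not be called. Its normalized counts were 37.9 and 42.4 in Ctrl and 48.1 and 75.9 in Red, from 13 and 31 reads. The Red libraries were both higher, although one of them only slightly. The log2 enrichment of 0.65 ± 0.56 (SE) had an adjusted p of 0.319 (DESeq2) and a 95% interval from −0.44 to 1.74. Scaling decided this value: total-count size factors gave 1.80 ± 0.60 (adjusted p of 0.00611, DESeq2), and total counts without miR-21-5p gave −0.050 ± 0.60 (adjusted p of 0.943, DESeq2).

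miR-192-3p, the passenger strand of MIR192, was close to the detection limit in both assays. In BoRed-seq it had 16 and 36 counts in Ctrl and 0 and 3 in Red, and its log2 enrichment of −1.14 ± 1.62 (SE) had an adjusted p of 0.551 (DESeq2). Its size-factor-scaled ratio of Red to Ctrl was 0.536, with an exact 95% counting interval of 0.107 to 1.65, so no direction was detectable at this depth. In Input 1 to 5 it had 10, 19, 9, 29 and 31 counts, and in IP 1 to 5 it had 0, 3, 1, 0 and 0. These groups did not overlap, and the scaled ratio of IP to Input was 0.0788, with an exact 95% counting interval of 0.0210 to 0.208. It did not pass the count filter of m7G-RIP-seq. Without the filter, its log2 enrichment was −3.60 ± 1.06 (SE, adjusted p of 0.00273, DESeq2). The passenger strand of MIR192 was thus low in IP where that of MIR194-2 was high.

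**Figure D2:**
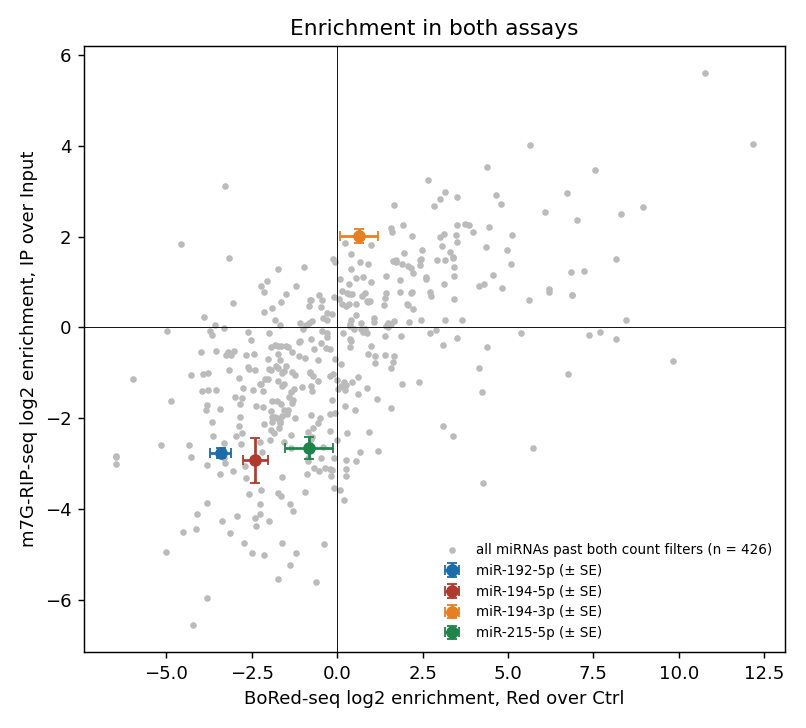
Log2 enrichment in BoRed-seq (x axis, Red over Ctrl) and m7G-RIP-seq (y axis, IP over Input) of the 426 miRNAs past both count filters (grey), with the 4 family members among them in colour and bars of ± SE. miR-192-5p and miR-194-5p lie in the lower left, miR-215-5p nearer to 0 on the x axis, and miR-194-3p in the upper right, with a log2 of 0.65 on the x axis and 2.01 on the y axis.

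The assays share no library, so the log2 enrichments of a miRNA in BoRed-seq and m7G-RIP-seq were set against each other in a z test (two-sided, from both standard errors), adjusted over the 384 miRNAs with an adjusted p in both. Of the 4 members tested, 2 differed, against 38% of all 384. The enrichment of miR-215-5p was higher in BoRed-seq by 1.83 ± 0.75 on the log2 scale (SE, adjusted z test p of 0.0412), and that of miR-194-3p was lower there, with a difference of −1.37 ± 0.58 (SE, adjusted z test p of 0.0482). miR-192-5p differed by −0.65 (95% interval −1.26 to −0.03, adjusted z test p of 0.0882) and miR-194-5p by 0.53 (95% interval −0.67 to 1.72, adjusted z test p of 0.524). Which members passed depended on the fit. With total-count factors only miR-215-5p passed (adjusted z test p of 0.00427), and with the replicate number as a block only miR-192-5p did (adjusted z test p of 0.0454). Without a count filter, and with total counts without miR-21-5p, the members that passed were miR-192-5p and miR-194-3p. An interaction term in a DESeq2 fit over all 14 libraries called 3 members, miR-192-5p (adjusted p of 1.78e-05), miR-194-3p (adjusted p of 7.30e-06) and miR-215-5p (adjusted p of 0.0286).

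The arms of miR-194 parted in both assays. Counts of the 5p arm cannot be told apart between MIR194-2 and MIR194-1, so the ratio is not that of MIR194-2 alone. The ratio of 2 arms within a library needs no size factor, so it is free of the scaling that decides single values in BoRed-seq. Counts of miR-194-3p were 68.9%, 54.8%, 64.4%, 24.8% and 18.8% of those of miR-194-5p in Input 1 to 5. In IP 1 to 5 they were 2160%, 2379%, 955%, 708% and 904%. In every Input library the 5p arm was thus the more abundant, and in every IP library the 3p arm.

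The shift in BoRed-seq had the same direction but did not turn the order of the arms. Counts of miR-194-3p were 7.05% and 7.22% of those of miR-194-5p in Ctrl and 56.5% and 60.8% in Red. The replicates of each group lay close together, with a wide gap between the groups, and miR-194-5p stayed the more abundant arm in all 4 libraries.

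Across all miRNAs with both arms past the count filter, log2 ratios of 3p to 5p were compared with limma. In m7G-RIP-seq, miR-194 rose by 4.94 ± 0.51 (SE), a 30.8-fold shift towards the 3p arm with an adjusted p of 7.40e-05 (limma), while 45.8% of all 155 arm pairs were called in either direction. The median over all pairs was −0.38, and 25 called pairs shifted towards 3p against 46 towards 5p. miR-194 ranked 3rd of 155, behind miR-30b at 6.50 (adjusted p of 0.000107, limma) and miR-628 at 5.21 (adjusted p of 0.00328, limma). Within replicates 1 to 3 its shift was 4.77 and within replicates 4 and 5 it was 5.21.

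In 4 of the 155 pairs the 3p arm was called enriched and the 5p arm depleted in the DESeq2 fit. These were miR-194, miR-106b, miR-30a and miR-30b. The reverse was found for 17 pairs, and in 39 pairs both arms were called in the same direction. In BoRed-seq, miR-194 shifted by 3.05 ± 0.35 (SE), 8.28-fold towards 3p, with an adjusted p of 0.00755 (limma), and ranked 8th of 100 pairs, of which 31% were called in either direction. Leaving out either Ctrl library raised the adjusted p to 0.0844 and 0.0822 (limma), with shifts of 3.03 and 3.07. The arms of miR-192 shifted by 2.43 ± 1.19 (SE, adjusted p of 0.207, limma) in BoRed-seq, a value that rests on 0 and 3 counts of the 3p arm in Red.

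**Figure D3:**
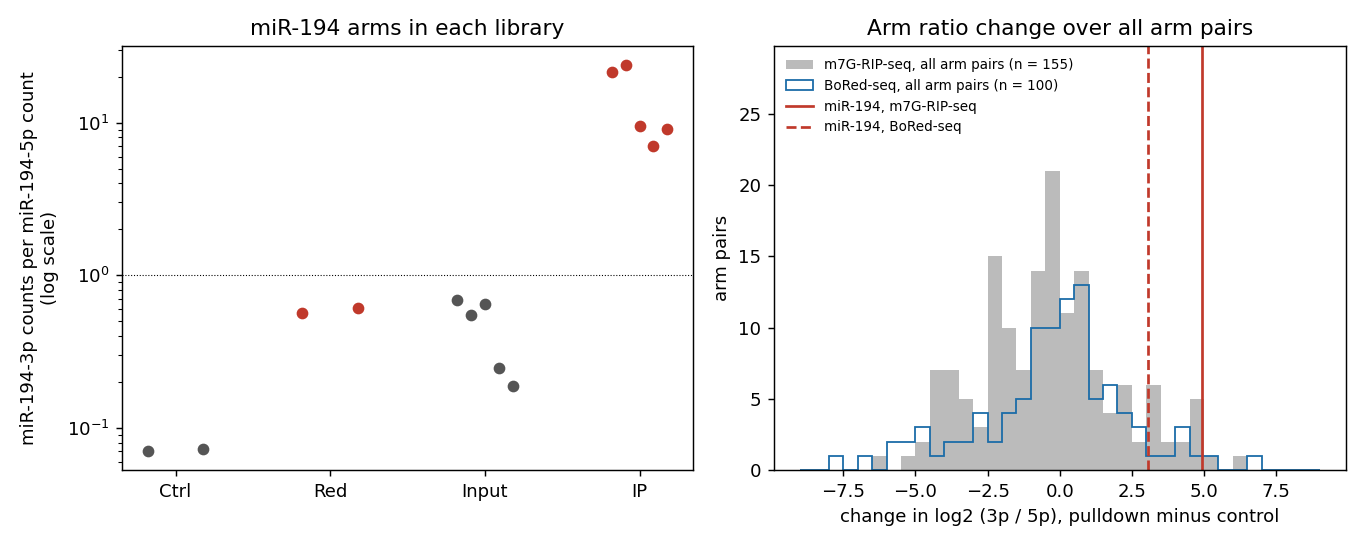
Left, counts of miR-194-3p per count of miR-194-5p in each library (log scale, dotted line at 1), grey for controls and red for pulldowns. Right, the number of arm pairs by change in log2 (3p / 5p) between pulldown and control, with miR-194 marked by red lines at 4.94 in m7G-RIP-seq (solid) and 3.05 in BoRed-seq (dashed), both to the right of most pairs.

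Ratios between the 5p members were compared within libraries in the same way, with two-sided exact permutation tests over libraries, adjusted over the 6 ratios computed. miR-194-5p stood at 2.57%, 2.86%, 3.20%, 8.07% and 8.22% of miR-192-5p in Input 1 to 5 and at 2.22%, 1.72%, 4.29%, 8.22% and 6.44% in IP 1 to 5. These ranges overlapped, and the difference of −0.17 on the log2 scale had an exact permutation p of 0.810 (adjusted 0.810). miR-215-5p stood at 0.254% to 0.331% of miR-192-5p in Input and at 0.186% to 0.400% in IP, a log2 difference of 0.10 with an exact permutation p of 0.698 (adjusted 0.810). No unequal depletion of the 5p members was thus detected in m7G-RIP-seq. Shortened reads may be shared by miR-192-5p and miR-215-5p, and their part in this ratio was not tested. The ratio of the miR-194 arms differed with an exact permutation p of 0.00794, the smallest that 5 libraries against 5 allow (adjusted 0.0476). With IP and Input paired by replicate number, the ratio was higher in IP in all 5 pairs, and the exact sign-flip permutation p was 0.0625, the smallest that 5 pairs allow, so this paired test could not pass the threshold.

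In BoRed-seq, the ratios of the other 5p members to miR-192-5p were higher in both Red libraries than in either Ctrl library. miR-215-5p made up 0.301% and 0.351% of miR-192-5p in Ctrl and 1.45% and 2.51% in Red, a 6.28-fold rise in the ratio. miR-194-5p made up 4.03% and 5.54% in Ctrl and 6.67% and 12.8% in Red. The groups did not overlap for either ratio, but the smallest exact permutation p that 2 libraries against 2 allow is 0.333, which each of the 3 BoRed-seq ratios reached (adjusted 0.50).

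m7G requires a guanine, and the members differ in their number of G. miR-194-3p holds 8 G, including an uninterrupted run of 4, shown here in capitals at positions 6 to 9.
miR-194-3p: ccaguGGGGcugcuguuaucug
miR-194-5p holds 5 G, and miR-192-5p, miR-192-3p and miR-215-5p hold 4 each, none with such a run. The motif GGGG was searched on the mature strand only and occurred in 278 of 2370 mature miRNAs of the reference (11.7%). Of the 602 miRNAs past the m7G-RIP-seq filter with a sequence in that reference, 74 held it, 49 of them enriched and 5 depleted. Among those without it, 122 were enriched and 171 depleted, and over all 670 miRNAs tested 27.3% were enriched and 29.9% depleted. The median log2 enrichment was 1.47 with the motif and −0.12 without it. In BoRed-seq, 38 of 406 held it, 24 enriched and 1 depleted, with medians of 2.54 with it and −0.54 without it. Among those without it, 90 were enriched and 89 depleted, and over all 400 miRNAs with an adjusted p 32.2% were enriched and 27.2% depleted.

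Over miRNAs, the number of G went with the log2 enrichment at r = 0.417 (Pearson) and rho = 0.435 (Spearman) in m7G-RIP-seq (n = 602), and at r = 0.385 and rho = 0.373 in BoRed-seq (n = 406). miRNAs are not independent replicates, since they share libraries, depth and family sequence, and these values are descriptions. miRNAs with 7 to 8 G had a median log2 enrichment of −0.01 in m7G-RIP-seq (n = 144), and miR-194-3p, at 2.01, lay above that median. Those with 0 to 4 G had a median of −0.67 (n = 167), above the −2.77 and −2.66 of miR-192-5p and miR-215-5p. Among 138 arm pairs with both sequences, the 3p arm held at least 3 more G than the 5p arm in 23, as in miR-194, and 14 of these 23 were called towards 3p in m7G-RIP-seq. Where the 3p arm held at least 3 fewer G, 5 of 53 pairs were called towards 3p. The position of m7G within a miRNA is not measured by either count table, and the part that sequence plays in the values was not tested.

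**Figure D4:**
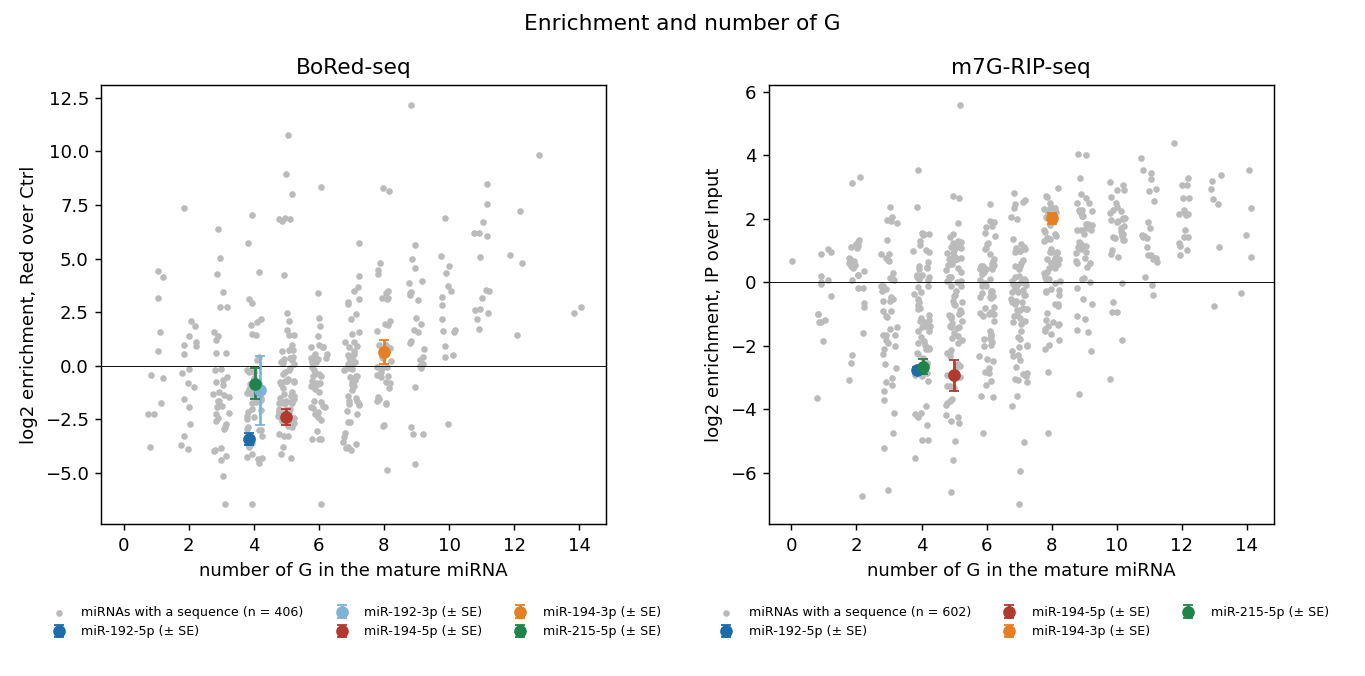
Log2 enrichment against the number of G in the mature miRNA for BoRed-seq (left, 406 miRNAs) and m7G-RIP-seq (right, 602 miRNAs), with points spread sideways for legibility and the family members in colour with bars of ± SE. In m7G-RIP-seq, miR-194-3p, with 8 G, lies at 2.01 and the 3 depleted members, with 4 or 5 G, lie between −2.93 and −2.66.

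Likeness to other miRNAs was described by the Pearson correlation of log2 normalized counts over the 14 libraries, each assay centred on its controls, among 426 miRNAs. It mostly reflects the common contrast of pulldown and control. The nearest to miR-192-5p were miR-452-5p (r = 0.983), miR-30a-5p (r = 0.980) and miR-185-5p (r = 0.979), and those nearest to miR-194-5p were miR-30b-5p (r = 0.955), miR-561-5p (r = 0.953) and miR-29a-3p (r = 0.95). The pattern of miR-215-5p was closest to miR-181a-5p (r = 0.986), miR-381-3p (r = 0.986) and miR-9-5p (r = 0.981). miR-181a-5p fell less in BoRed-seq, with a log2 enrichment of −0.94 ± 0.31 (SE), than in m7G-RIP-seq, with −3.62 ± 0.24.

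The nearest to miR-194-3p were miR-1247-5p (r = 0.954), miR-191-5p (r = 0.954) and miR-182-5p (r = 0.933). All of these were enriched in m7G-RIP-seq and not called in BoRed-seq, with log2 values of 1.07 ± 0.12 and 0.07 ± 0.30 (SE) for miR-191-5p. Within the family, miR-194-3p correlated at r = −0.770 with miR-194-5p, the other arm of its hairpin, whose counts cannot be told apart from those of MIR194-1. With miR-215-5p it correlated at r = −0.953, while the 5p members correlated with each other at 0.781 to 0.876 (n = 14 libraries).

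Of 12 other miRNAs linked to p53, 8 passed the filter in each assay. In BoRed-seq 7 of these 8 had an adjusted p, of which 1 was enriched and 4 were depleted. The median log2 enrichment of the 8 was −1.43 against −0.32 over all miRNAs. Of all 400 miRNAs with an adjusted p, 32.2% were enriched and 27.2% depleted. In m7G-RIP-seq 0 were enriched and 3 depleted, with a median of −0.76 against 0.02, and the 3 of 8 depleted were near the 29.9% of all miRNAs. Of the miR-34 family, the best known direct targets of p53, miR-34a-5p and miR-34c-5p were depleted in both assays. miR-34b-3p and miR-34c-3p were called in neither, the latter without an adjusted p in BoRed-seq. The log2 enrichment of miR-34a-5p by BoRed-seq was −1.63 ± 0.48 (SE, adjusted p of 0.00177, DESeq2) and by m7G-RIP-seq −4.76 ± 0.33 (SE, adjusted p of 2.64e-45, DESeq2). That of miR-34c-5p was −1.91 ± 0.41 by BoRed-seq and −1.61 ± 0.48 by m7G-RIP-seq (SE, adjusted p of 1.16e-05 and 0.00198, DESeq2). The largest depletion of the list in BoRed-seq was that of miR-16-5p, from the miR-15/16 cluster, at −3.05 ± 0.45 (SE, adjusted p of 5.64e-11, DESeq2), while its value in m7G-RIP-seq was 0.54 ± 0.46 (SE, adjusted p of 0.306, DESeq2). miR-143-3p was the enriched miRNA of BoRed-seq, at 1.83 ± 0.43 (SE, adjusted p of 6.93e-05, DESeq2).

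Of 9 miRNAs typical of liver and gut epithelium, 6 passed the filter in each assay. In BoRed-seq 2 were enriched, near the 32.2% of all miRNAs, and 0 depleted, with a median of −0.11 against −0.32 over all. In m7G-RIP-seq 1 was enriched and 4 were depleted, against 29.9% of all miRNAs that were depleted, with a median of −1.61 against 0.02. miR-375, an epithelial and endocrine miRNA, was enriched in both, at 3.02 ± 0.40 by the chemical and 2.00 ± 0.35 by the antibody pulldown (SE, adjusted p of 1.70e-13 and 3.82e-08, DESeq2). miR-200c-3p, which keeps epithelial identity, was enriched in BoRed-seq at 2.89 ± 0.44 (SE, adjusted p of 1.65e-10, DESeq2), and had −0.048 ± 0.25 in m7G-RIP-seq (SE, adjusted p of 0.884, DESeq2). Its relatives miR-200a-3p and miR-429 were depleted in m7G-RIP-seq, at −3.79 ± 0.85 and −2.88 ± 0.92 (SE, adjusted p of 2.51e-05 and 0.00411, DESeq2), and had 0.19 ± 0.65 and −3.31 ± 1.78 in BoRed-seq (SE, adjusted p of 0.811 and 0.0985, DESeq2). Their m7G-RIP-seq counts were 0 in 1 and 2 libraries. The relative miR-200b-3p, with at least 217 counts there, was depleted at −2.64 ± 0.35 (SE, adjusted p of 9.23e-13, DESeq2). In BoRed-seq miR-200b-3p had −0.41 ± 0.41 (SE, adjusted p of 0.403, DESeq2).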

How the data were processed

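The authors trimmed the 50-base reads with Trimmomatic, aligned them to hg38 and counted mature miRNAs of miRBase with featureCounts. The methods of the study name STAR as aligner, with up to 10 loci per read and at most 1 mismatch, while the processing notes of the labels name Bowtie2. The deposited values are raw counts per mature miRNA and library, neither normalized nor pooled, with 0 columns that matched no sample and 0 entries that named no miRNA.

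Red was compared with Ctrl and IP with Input in separate DESeq2 1.42.0 fits (R 4.3.3), the test that the methods of the study name, here without covariates. miRNAs that did not reach 10 counts in 2 (BoRed-seq) or 5 (m7G-RIP-seq) libraries were removed first. Of 453 BoRed-seq miRNAs, 400 received an adjusted p. Log2 values were not shrunken. Arm ratios, with 0.5 added to each count, were compared with limma 3.58.1, and single ratios with exact permutation tests (scipy 1.17.1). Alternatives covered edgeR 4.0.16 with TMM factors, size factors, filters, pseudocounts of 1 and 5, Ctrl thinned to 259792 counts, a replicate block, sets of replicates, an interaction term over all 14 libraries and each library left out. Sign flips over replicate pairs were added after seeing the data. Positions were matched to GENCODE 44.

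In simulated data with 200 changed miRNAs, DESeq2 recovered 63.0% in BoRed-seq (453 miRNAs, 3 false calls) and 80.0% in m7G-RIP-seq (670 miRNAs, 9 false calls). In BoRed-seq, the limma arm test recovered 0% of changed pairs at a simulated log2 change of 2 and 60.0% at 4, with 0 false calls. In m7G-RIP-seq it recovered 58.1% and 96.8%, with 4 and 6 false calls (155 pairs, 31 of them changed). No replicates agreed within sampling noise, with chi-square per degree of freedom of at least 12.6. Libraries of m7G-RIP-seq with the same replicate number deviated together from their group means (r from 0.146 to 0.387 in all 5). For replicates 2 and 4, however, a library of another number matched better. The sets of replicates that stood apart along the second principal component were not removed first, and could alone give positive r. The check therefore cannot decide whether the numbers pair the libraries. The replicate block and the sign flips assume that they do. Counting intervals and limits cover counting error only. All 5 members are named, with the miRNAs of most similar pattern and the 3 largest arm shifts. From the p53 and the liver and gut lists, the 2 largest calls each way are named. Further miRNAs of the miR-34 and miR-200 families in these lists are named beside them. The members and lists were chosen with earlier results of these data known.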

Additional observations from a re-analysis of the deposited data

How the results depend on the processing

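The calls of miR-192-5p and miR-194-5p in both assays and of miR-194-3p and miR-215-5p in m7G-RIP-seq kept their direction and side of the threshold under every alternative that gave a value. The number of members called was 2 to 3 in BoRed-seq, the third being miR-194-3p or miR-215-5p under the factors below, and 4 to 5 in m7G-RIP-seq, where miR-192-3p joined without a count filter. Without each library in turn, the BoRed-seq value of miR-192-5p ran from −3.61 to −3.31 and its m7G-RIP-seq value from −2.83 to −2.73, while that of miR-194-3p ran from 1.95 to 2.07 in the latter. Red counts of miR-194-3p, miR-215-5p and miR-192-3p were 31 or fewer per library. With total-count factors, which shifted the BoRed-seq median of all miRNAs by 1.08, miR-192-3p turned to 0.095 and miR-215-5p to 0.31, miR-194-3p was called at 1.80, and 79.2% of calls were enriched instead of 54.2%. Total counts without miR-21-5p shifted it by −0.77, left 37.7% of calls enriched, turned miR-194-3p to −0.050 and called miR-215-5p at −1.54 (adjusted p of 0.0465, DESeq2). In m7G-RIP-seq these factors shifted the median by 0.36 and −0.36 and the enriched share of calls from 47.8% to 58.6% and 36.6%. With Ctrl thinned to the Red depth, miR-192-3p turned to 2.15, since it then had 0 counts in Ctrl.

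The number of members that differed between the assays fell from 2 to 1 with total-count factors and to 1 with the replicate block, and rose to 3 with the interaction term over all libraries. The block changed no other call of a member, and the m7G-RIP-seq arm shift of miR-194 kept an adjusted p of 0.000247 (limma) with it. Exact sign flips over the 5 replicate pairs, chosen after seeing the data, cannot go below 0.0625, the p of the shift of 4.94 in the ratio of the miR-194 arms. In BoRed-seq, libraries of the same number correlated at 0.110, and with 2 pairs they share only a number. The block gave 119 enriched and 98 depleted BoRed-seq miRNAs in place of 129 and 109. The edgeR fit gives no standard error, so the z test was not run with it. The BoRed-seq arm shift of miR-194 ran from 3.00 to 3.09 without each library in turn, with an adjusted p (limma) of up to 0.0844. Its exact ratio was 3.12 with a pseudocount of 5, and that of miR-215-5p to miR-192-5p was 3.27 instead of 2.65. The m7G-RIP-seq ratio of miR-194-5p to miR-192-5p ran from −0.44 to 0.12 without each library and was above 0 without Input 4, Input 5, IP 1 or IP 2. The causes of these changes were not tested.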

Other observations

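The controls of the assays held the 3p and 5p arms of the family in different proportions, a comparison that the design does not make. Ctrl and Input libraries were prepared apart, and only Ctrl RNA had gone through the acid and probe steps. miR-194-3p was at 23.8 ± 0.741 cpm in Ctrl (SD, n = 2) and at 245 ± 35.9 cpm in Input (SD, n = 5). miR-194-5p was at 334 ± 4.94 and 711 ± 470 cpm, and miR-192-5p at 7152 ± 1498 and 13724 ± 1262 cpm. The passenger strand of MIR192 went the other way, with miR-192-3p at 5.21 ± 3.52 cpm in Ctrl and 1.61 ± 0.684 cpm in Input. The miR-194 arm ratio was therefore 7.05% and 7.22% in the Ctrl libraries, below the 18.8% of the lowest Input library. The cpm values depend on the library total, of which miR-21-5p took 79.0% and 80.4% in Ctrl and 38.0% to 46.3% in Input. Ratios between the 5p members do not depend on it, and they overlapped. miR-194-5p was at 4.03% and 5.54% of miR-192-5p in Ctrl and at 2.57% to 8.22% in Input. For miR-215-5p these were 0.301% and 0.351% in Ctrl and 0.254% to 0.331% in Input. The differences between Ctrl and Input were not tested.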
